A study of Mus musculus with 8 samples.

Results

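Lars2, Gm26917 and CT010467.1 are 3 genes of the 55335 in the files, and they were chosen because their counts, and the difference of Lars2 between genotypes, stood out in these same data. All transcripts that the files assign to these symbols were taken, 13 of 142351. The values below therefore describe the members and test nothing about them. The RNA was that of CD8 T cells, as the labels call the sorted cells, out of tumours of B16, a mouse melanoma cell line injected into a vein, after 14 days of growth. The hosts were wild-type C57BL/6 mice (WT) or CD36 KO mice with the same strain background (CD36_KO), and both groups carried the same tumour cells. Neither the KO allele, the organ that held the tumours, the number and age of the animals nor the gates of the sort could be read from the labels. The titles give 4 sequencing lanes of 1 library per genotype, so n is 1 library per genotype and no difference between genotypes has a replicate check. Neither the SD over lanes nor the 95% intervals hold any variation between animals or preparations. The intervals cover counting error alone, and without molecular identifiers 1 molecule can give several reads.

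Lars2 encodes the mitochondrial leucyl-tRNA synthetase, a nuclear-encoded enzyme that loads leucine onto the tRNAs used by mitochondrial ribosomes. Gm26917 and CT010467.1 are not known as protein-coding genes. They lie side by side in a stretch of chromosome 17 that is known to hold a copy of ribosomal DNA. RNA polymerase I transcribes such repeats into a long precursor, which is cut into the 18S, 5.8S and 28S RNAs with spacers between and around them. The last part of the annotated Lars2 transcript is known to resemble 28S ribosomal RNA, so reads counted for Lars2 need not all come from its mRNA. Total RNA is mostly ribosomal RNA, and the labels do not say whether ribosomal RNA was removed before these libraries were made.

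On GRCm38, with GENCODE M21 as the annotation, Lars2 (ENSMUSG00000035202.8, protein coding) spans chr9:123366927-123462666 on the plus strand. No other annotated gene overlaps it. Gm26917 (ENSMUSG00000097971.3, a long noncoding RNA) spans chr17:39843013-39846341 on the plus strand, and CT010467.1 (ENSMUSG00000106106.2, annotated as rRNA) spans chr17:39846353-39848827 on the minus strand. A gap of 11 bases separates these 2 genes. Gm42418, a noncoding RNA at chr17:39846958-39848788, lies inside CT010467.1 on the opposite strand, and AY036118 (chr17:39847113-39848035, minus strand) lies inside both.

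Kallisto, the program that the submitters' processing notes name, assigns reads by short words of sequence, usually of 31 bases. By words of that length, on either strand, Lars2, Gm26917 and CT010467.1 shared 0 with each other. Lars2 shared 26 words with AA474408, a locus on chromosome 7 of the annotation class TEC (still to be experimentally checked), and 22 with Gm15564, a noncoding RNA on chromosome 16. All of them lie in the 3′ untranslated region of Lars2, the last 986 bases of its protein-coding transcript Lars2-201. AA474408 was looked at because of this shared sequence, after its values could be seen. The following 30 bases show how alike these loci are. They lie in the last exon of Lars2, at chr9:123462063-123462092 on the plus strand, at chr16:35981752-35981781 on the minus strand, and at chr7:110059694-110059723 on the minus strand. Capitals mark bases that differ from Lars2, which is 0 of 30 in Gm15564 and 1 of 30 in AA474408.
Lars2: tggattgttcacccactaatagggaacgtg
Gm15564: tggattgttcacccactaatagggaacgtg
AA474408: tggattgttcacccactaataAggaacgtg

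CT010467.1 has 2 annotated transcripts that share 37 words. CT010467.1-201 (1849 bases, rRNA) lies nearer Gm26917, and CT010467.1-202 (714 bases, pseudogene) lies farther from it. Of the 1819 words of CT010467.1-201, 605 occur in no other transcript, and the others also occur, on the opposite strand, in Gm42418. The stretch that only CT010467.1-201 covers is its last 605 bases, chr17:39846353-39846957. The following 120 bases of CT010467.1-201 (chr17:39846898-39847017, minus strand) cross the point where Gm42418 begins, and capitals mark the bases outside every word shared with another transcript. The first 60 bases of Gm42418 (chr17:39846958-39847017), printed as their reverse complement, match the part in lower case.
CT010467.1-201: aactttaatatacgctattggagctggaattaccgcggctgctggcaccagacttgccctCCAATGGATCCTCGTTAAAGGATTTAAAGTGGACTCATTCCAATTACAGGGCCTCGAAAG
Gm42418 reverse complement: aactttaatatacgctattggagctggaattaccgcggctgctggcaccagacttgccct
This sequence is known from the small-subunit ribosomal RNA (18S), read here on its opposite strand. The labels name no strand setting, so reads of CT010467.1 and of Gm42418 cannot be told apart where they overlap.

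The isoforms of CT010467.1 fall out of step where the annotation of CT010467.1-202 skips the bases GT. After that point the same sequence runs on, shifted, to the end of CT010467.1-202. The 60 bases of each that start at the same place (chr17:39848103-39848164 for CT010467.1-202 and chr17:39848105-39848164 for CT010467.1-201, minus strand) show the point, with the bases after the shared run in capitals.
CT010467.1-202 end: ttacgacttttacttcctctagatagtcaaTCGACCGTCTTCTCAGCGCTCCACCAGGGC
CT010467.1-201 start: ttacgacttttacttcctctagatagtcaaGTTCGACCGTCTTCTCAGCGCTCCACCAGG
Gm26917 is rich in G and C. Its main transcript, Gm26917-202 (3329 bases), is 69.1% G or C, above 99.8% of 141767 annotated transcripts. CT010467.1-202 is at 68.5%, CT010467.1-201 at 55.4% and the main Lars2 transcript at 51.1%. The last 60 bases of Gm26917-202 (chr17:39846282-39846341), next to the gap, show this composition.
Gm26917-202: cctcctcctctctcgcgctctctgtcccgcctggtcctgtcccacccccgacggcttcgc

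**Figure D1:**
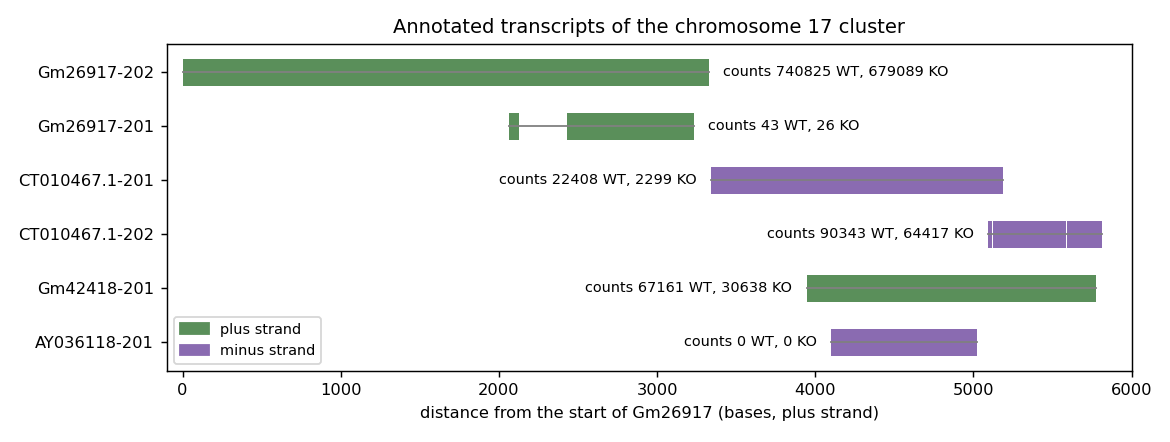
Annotated transcripts of the chromosome 17 cluster, drawn to scale along the distance in bases from the start of Gm26917, with boxes for exons, green for the plus strand and purple for the minus strand, and the summed counts of the WT and CD36_KO (KO) libraries beside each. CT010467.1-201, with 22408 and 2299 counts, is the transcript nearest to Gm26917, and Gm42418 lies across both CT010467.1 isoforms.

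The libraries held 10072218 estimated counts (WT) and 10363699 (CD36_KO), with 2497048 to 2611740 per lane. A gene was called measured from a mean of 5 CPM (counts per 1000000 after TMM scaling, which evens out libraries by the bulk of their genes), and 12177 genes were. The median log2 ratio of CD36_KO over WT over the measured genes was -0.13 with TMM, 0.06 with total counts and 0.37 on the log2(TPM + 1) scale, so values near 0 depend on the scale. Cd36 itself had 1194 counts in WT and 358 in CD36_KO, log2 ratio -1.98 (95% interval -2.15 to -1.80). The label CD8 T cell was checked against markers. All 12 CD8 T cell markers were detected in both libraries, with a summed level of 353 to 369 CPM in the WT lanes and 1190 to 1232 in the CD36_KO lanes. The 14 melanoma markers summed to 5712 to 5950 CPM in the WT lanes and 1433 to 1496 in the CD36_KO lanes, above the T cell markers in both. The 12 macrophage markers summed to 5362 to 5454 and 4078 to 4117 CPM.

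Lars2 took 0.111% of all counts in WT (exact binomial interval 0.109% to 0.113%) and 0.0165% in CD36_KO (0.0158% to 0.0173%). In WT its share was 0.107%, 0.115%, 0.113% and 0.111% in lanes 1 to 4, and in CD36_KO it was 0.0163%, 0.0167%, 0.0172% and 0.0159%. The lanes of the 2 libraries were far apart, and the spread within a library was small beside the gap. Summed over lanes these shares are 11215 and 1713 counts, or 1192 and 154 CPM, a log2 ratio of -2.95 (-3.02 to -2.88), 7.72-fold lower in CD36_KO. By counts Lars2 was at rank 50 of all genes in WT and at rank 584 in CD36_KO. Of the measured genes, 63 (0.517%) had a lower log2 ratio.

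Lower or higher by at least 2-fold was called from a log2 ratio of -1 or below, or of 1 or above, with a counting interval that left out 0. Under this rule 10.8% of measured genes were lower in CD36_KO and 6.50% were higher. Of the 3 members, Lars2 was called lower and Gm26917 and CT010467.1 were not called, and nothing is read from this count because the members were chosen on the same contrast.

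Gm26917 was at rank 2 of all genes by counts in both libraries, after the mitochondrial 16S ribosomal RNA gene mt-Rnr2. Its share was 7.40%, 7.34%, 7.37% and 7.31% in the WT lanes and 6.56%, 6.57%, 6.56% and 6.52% in the CD36_KO lanes. The WT lanes all lay above the CD36_KO lanes, by a small margin. Its 740868 and 679115 counts gave a log2 ratio of -0.36 (-0.37 to -0.36) with TMM and -0.17 with total counts, but 0.18 on the log2(TPM + 1) scale, where it was higher in CD36_KO. Its TPM, the level per length, was 11510 ± 240 (SD over 4 lanes) in WT and 13032 ± 149 in CD36_KO. The direction for Gm26917 therefore depends on the scale.

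CT010467.1 took 1.14%, 1.12%, 1.12% and 1.10% of the counts in the WT lanes and 0.651%, 0.640%, 0.644% and 0.640% in the CD36_KO lanes. The WT lanes again all lay above the CD36_KO lanes. The sums were 112751 and 66716 counts, at rank 9 in WT and 11 in CD36_KO. The log2 ratio was -0.995 (-1.01 to -0.98), which lies just inside the 2-fold limit. It was -0.80 with total counts and -0.20 on the log2(TPM + 1) scale, with 8673 ± 133 TPM in WT and 7526 ± 130 in CD36_KO. Per length, the order in both libraries was Gm26917, CT010467.1 and then Lars2, which was at 154 ± 8.11 TPM in WT and 29.9 ± 1.15 in CD36_KO. Together the 3 genes took 8.59% of WT counts and 7.21% of CD36_KO counts.

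**Figure D2:**
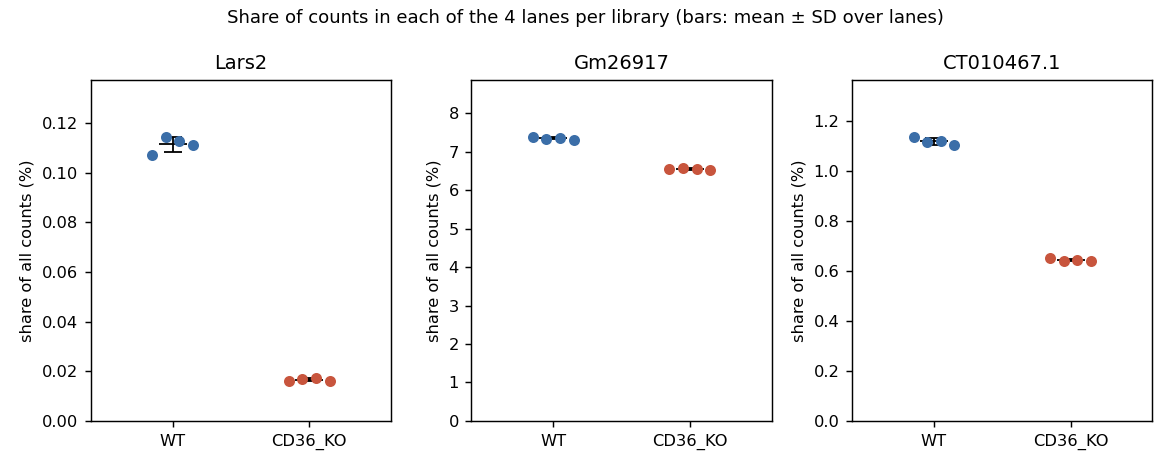
Share of all counts (%) in each of the 4 lanes of the WT (blue) and CD36_KO (red) libraries for Lars2, Gm26917 and CT010467.1, with the mean and SD over lanes as bars, on axes that start at 0. Lars2 lies between 0.107% and 0.115% in the WT lanes and between 0.0159% and 0.0172% in the CD36_KO lanes, while Gm26917 lies between 6.52% and 7.40% throughout.

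The 3 genes kept no fixed proportion. Per 1000 counts of Gm26917 there were 15.1 counts of Lars2 in WT and 2.52 in CD36_KO, a log2 change of -2.59 (-2.66 to -2.51). This ratio needs no library scaling. CT010467.1 stood at 152 per 1000 Gm26917 counts in WT and 98.2 in CD36_KO, a log2 change of -0.63 (-0.65 to -0.62). Lars2 per 1000 CT010467.1 counts was 99.5 and 25.7, a log2 change of -1.95 (-2.03 to -1.88). The range over lanes was 14.5 to 15.6 and 2.44 to 2.62 for Lars2 per 1000 Gm26917 counts.

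Within CT010467.1 the isoforms differed. CT010467.1-201 had 5729, 5473, 5661 and 5545 counts in the WT lanes and 559, 555, 583 and 601 in the CD36_KO lanes. All CD36_KO lanes were far below all WT lanes. The log2 ratio was -3.52 (-3.59 to -3.46), 11.5-fold lower, below that of the whole gene. CT010467.1-202 had 23158, 22448, 22695 and 22043 counts in the WT lanes and 16439, 15893, 16243 and 15842 in the CD36_KO lanes. Its log2 ratio was -0.73 (-0.74 to -0.71). CT010467.1-201 made up 19.9% ± 0.211 (SD over 4 lanes) of the gene's counts in WT and 3.45% ± 0.156 in CD36_KO. Per 1000 counts of CT010467.1-202 there were 248 of CT010467.1-201 in WT and 35.7 in CD36_KO, a log2 change of -2.80 (-2.86 to -2.73). Among 18197 measured transcripts, 14.5% were at least 2-fold lower in CD36_KO and 10.4% at least 2-fold higher.

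Gm42418, which shares sequence with both isoforms, had 67161 counts in WT and 30638 in CD36_KO. Its log2 ratio of -1.37 (-1.39 to -1.35) lay between those of the isoforms, and it was no longer 2-fold lower on the log2(TPM + 1) scale, at -0.81. AY036118, all of whose words occur in CT010467.1-201 and Gm42418, had 0 counts in both libraries. The counts of each of these transcripts rest on how kallisto divided reads over shared sequence. The 605 words that only CT010467.1-201 has are 33.3% of its words, and the files give no positions of reads within a transcript.

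Most Lars2 counts were assigned to Lars2-209 (3756 bases), annotated as a target of nonsense-mediated decay, the pathway that removes mRNAs with an early stop codon. It had 2599, 2764, 2789 and 2749 counts in the WT lanes and 327, 366, 412 and 370.2 in the CD36_KO lanes. Every CD36_KO lane was far below every WT lane. The log2 ratio was -3.12 (-3.20 to -3.05). Lars2-209 held 97.2% ± 1.39 (SD over 4 lanes) of the gene's counts in WT and 86.1% ± 6.65 in CD36_KO.

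Lars2-201 (3894 bases), which codes for the full protein, had 108, 81.2, 54.1 and 23.5 counts in the WT lanes and 80.4, 53.6, 26.8 and 26.8 in the CD36_KO lanes. The lanes of the 2 libraries overlapped. The sums of 267 and 188 counts gave a log2 ratio of -0.74 with a counting interval of -1.02 to -0.47, but the estimates moved in steps. Against the value of CD36_KO lane 4, the CD36_KO lanes stood at 3.00, 2.00, 1.00 and 1.00 and the WT lanes at 4.04, 3.03, 2.02 and 0.875. The interval takes each estimated count as a read and does not cover this. Without CD36_KO lane 1 the log2 ratio was -1.13, which is past the 2-fold limit. Lars2-201 and Lars2-209 differ in the ends of exons 11 and 12 of 21 and at their outer ends, and only 35 of the 3726 words of Lars2-209 and 149 of the 3864 words of Lars2-201 occur in no other transcript. The division between them is therefore uncertain.

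The other 7 Lars2 transcripts together had 47 counts in WT and 51 in CD36_KO. Most were retained-intron transcripts, with 44 and 45 counts, or 3.11 to 5.55 CPM in the WT lanes and 3.67 to 5.15 CPM in the CD36_KO lanes. The lanes overlapped. These transcripts do not reach the annotated 3′ end of Lars2, and each was below the 5 CPM limit. The low counts limit what can be seen in them, and their sum was small beside the gene's total in both libraries.

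**Figure D3:**
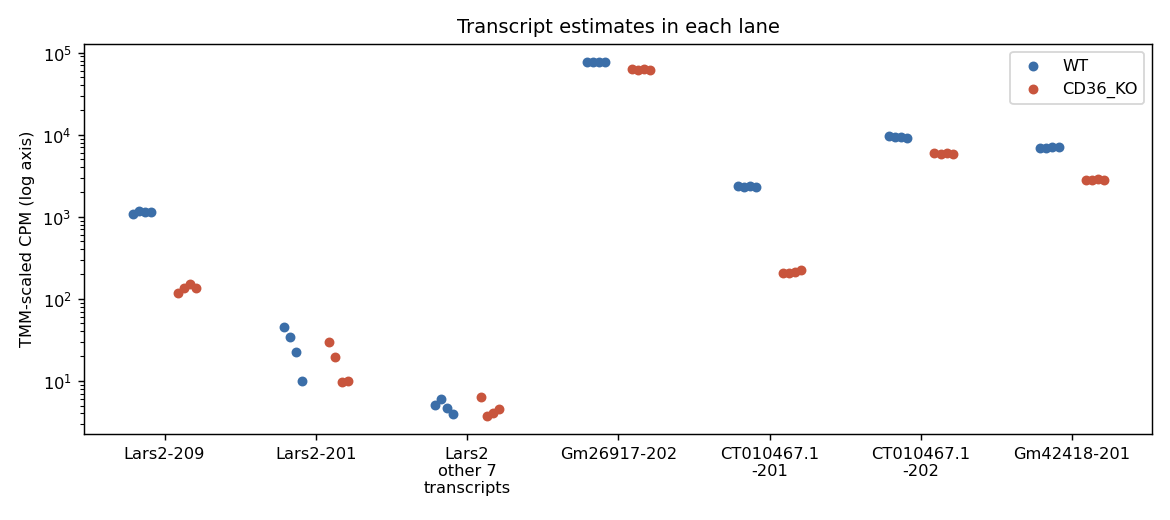
TMM-scaled CPM on a log axis in each of the 4 lanes of the WT (blue) and CD36_KO (red) libraries, by transcript. The libraries are far apart for Lars2-209 and CT010467.1-201, with log2 ratios of -3.12 and -3.52, and close for Gm26917-202, while the lanes overlap for Lars2-201 and for the other 7 Lars2 transcripts.

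The loci that share sequence with the end of Lars2 had low counts beside it and similar ratios. AA474408 had 601, 651, 592 and 625 counts in the WT lanes and 107, 121, 121 and 108 in the CD36_KO lanes, a log2 ratio of -2.67 (-2.82 to -2.52). Gm15564 had 31.9, 32.4, 38.2 and 24.0 counts in the WT lanes and 1.04, 4.23, 3.07 and 11.7 in the CD36_KO lanes. CD36_KO lane 4 held more than the other 3 CD36_KO lanes together. Its sums of 126 and 20 gave -2.89 (-3.65 to -2.21), and without CD36_KO lane 4 the log2 ratio was -3.80. The mitochondrial ribosomal RNAs, which come from the mitochondrial genome and not from these repeats, had log2 ratios of 0.26 (mt-Rnr2, 903012 and 1274967 counts) and -0.08 (mt-Rnr1, 296799 and 331113 counts). With total counts mt-Rnr2 was at 0.46 and mt-Rnr1 turned to 0.12, and on the log2(TPM + 1) scale they were at 0.82 and 0.51. The tRNAs that the Lars2 enzyme charges, mt-Tl1 and mt-Tl2, were below the 5 CPM limit. With no filter beyond 1 count in each library both were called lower in CD36_KO. Over all genes 2271 were called lower and 2214 higher under that filter. Nothing is read from the calls of these tRNAs, because their low counts limit what they can show.

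**Figure D4:**
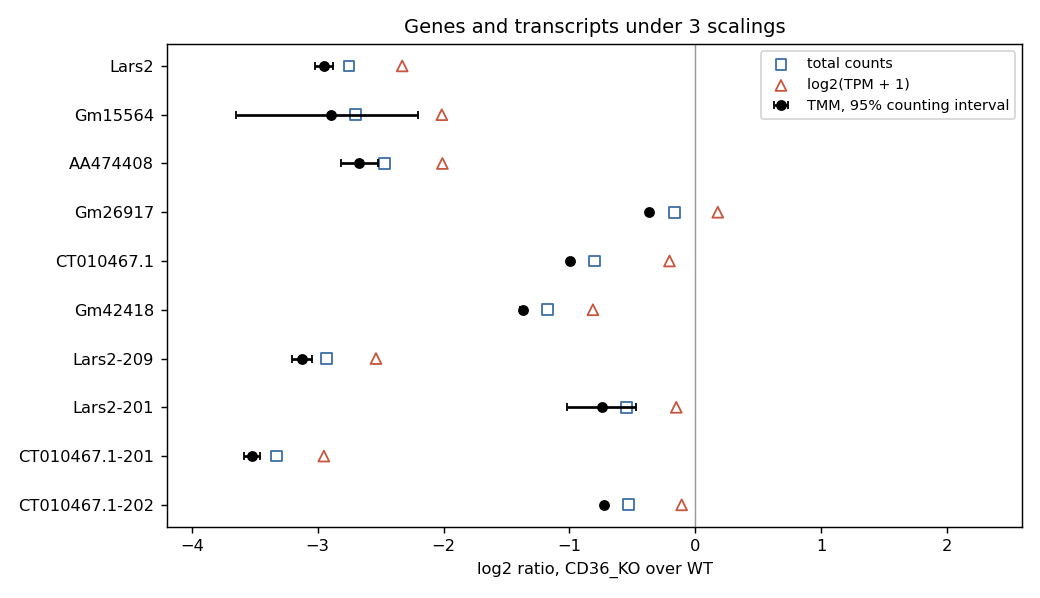
Log2 ratio of CD36_KO over WT for the members, their main transcripts and the loci that share sequence with them, with TMM scaling and its 95% counting interval (black), total counts (blue squares) and log2(TPM + 1) (red triangles). Gm26917 changes side between scales, from -0.36 to 0.18, while Lars2, AA474408, Gm15564 and CT010467.1-201 stay below -2 on each scale drawn.

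The nuclear genes of mitochondrial translation were taken as lists. Of 17 mitochondrial aminoacyl-tRNA synthetase genes 16 were measured, with a median log2 ratio of 0.03. Lars2 was the one called lower, and 0 were called higher. Without Lars2 the median of the 15 others was 0.04. Cars2, for cysteine, stood at 0.39 and Wars2, for tryptophan, at 0.42, and neither was called. On the log2(TPM + 1) scale 2 of the 16 were at least 2-fold higher, Wars2 at 1.03 and Hars2, for histidine, at 1.04. On that scale 1501 of the 12177 measured genes were higher, a similar share, and their median was 0.37. Nothing is read from this count. Iars2, the isoleucine enzyme, was the next in CPM after Lars2, with 55.2 in WT and 45.5 in CD36_KO. Per length, Tars2, the threonine enzyme, was next, at 9.01 ± 1.72 TPM in WT and 14.2 ± 1.79 in CD36_KO. Summed over its transcripts, Lars2 thus stood at a higher level per length than every other listed mitochondrial synthetase in both libraries. Most of this sum was Lars2-209, at 149 TPM in WT and 24.9 in CD36_KO. Lars2-201, which codes for the full protein, was at 3.49 ± 1.83 and 3.05 ± 1.65 TPM, below Tars2. The division between these transcripts is uncertain, and the sum need not be the level of the Lars2 mRNA.

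Of 20 cytosolic synthetase genes 20 were measured and 1 was lower, Aars, the alanine enzyme (1125 and 592 counts, -1.16). This call ended with total counts, at -0.97, and on the log2(TPM + 1) scale, at -0.38. Gars, the glycine enzyme, was at -0.98 and was not called, but was at -1.01 without CD36_KO lane 3. The list's median was -0.50 with TMM but 0.14 on the log2(TPM + 1) scale. Lars, the cytosolic leucine enzyme, had 523 and 467 counts, a log2 ratio of -0.40 (-0.58 to -0.22), and 12.9 ± 3.71 and 13.0 ± 2.86 TPM. Even the most abundant cytosolic enzyme per length in WT, Gars at 30.1 ± 4.15 TPM, was far below the summed Lars2 transcripts there. In CD36_KO Qars, the glutamine enzyme, at 31.8 ± 2.22 TPM, and the summed Lars2 transcripts did not differ beyond the spread over lanes.

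**Figure D5:**
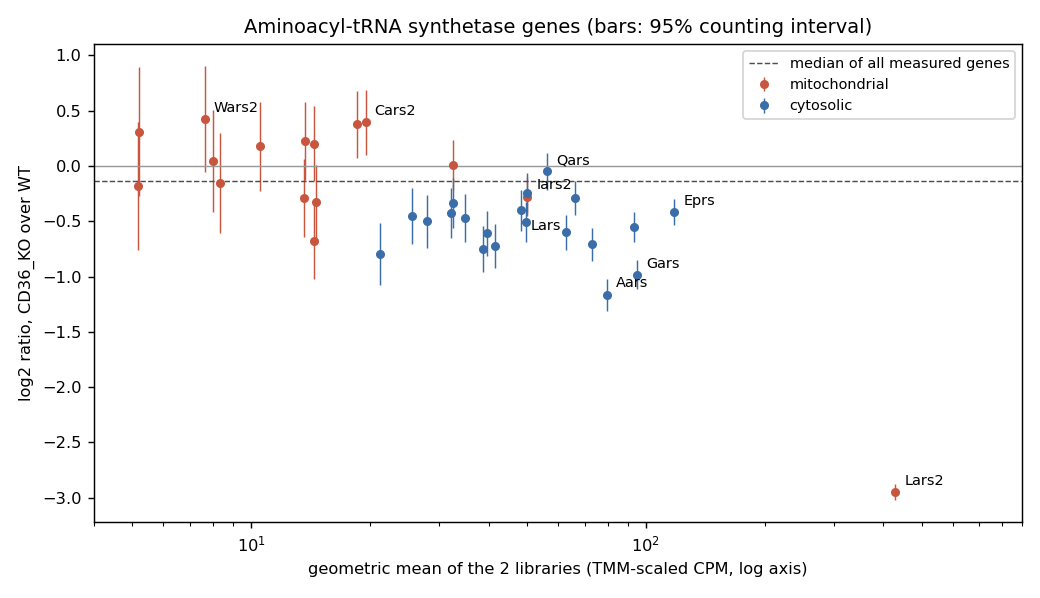
Log2 ratio of CD36_KO over WT against the geometric mean level (TMM-scaled CPM, log axis) of the measured aminoacyl-tRNA synthetase genes, mitochondrial in red and cytosolic in blue, with 95% counting intervals and the median of all measured genes as a dashed line at -0.13. Lars2 lies at the lower right, at -2.95, and none of the other 15 mitochondrial genes was called with TMM.

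Of 78 mitochondrial ribosomal protein genes in the files 74 were measured, 3 of them lower (Mrpl12 at -1.13, Mrpl14 at -1.10 and Mrpl22 at -1.004) and 0 higher. With total counts they were at -0.93, -0.91 and -0.81, and on the log2(TPM + 1) scale at -0.50, -0.33 and -0.33, so 0 of the 74 were called on either scale. Leaving out 1 lane gave 1 (without WT lane 2) to 6 (without CD36_KO lane 4) lower. The median was -0.39, and 0.11 on the log2(TPM + 1) scale. Of 42 genes of RNA polymerase I and ribosomal RNA processing, 1 was lower, Nhp2, a protein of the H/ACA particles that guide pseudouridine formation (280 and 161 counts, -1.04), and 0 were higher. This call ended with total counts, at -0.84, on the log2(TPM + 1) scale, at -0.49, with same-numbered lanes as a block, at -0.98, and without any 1 of WT lanes 1, 3 and 4 or CD36_KO lanes 2 and 4, at -0.99 to -0.92. The median was -0.15 with TMM, 0.05 with total counts and 0.44 on the log2(TPM + 1) scale. Xrn2, an exonuclease that trims ribosomal RNA precursors, was at 0.84 and passed the 2-fold limit with total counts, at 1.04, and on the log2(TPM + 1) scale, at 1.45, where 4 of the 42 genes were higher. Of all 12177 measured genes 1501 were higher on that scale, so nothing is read from this count. With TMM Polr1a, the largest subunit of the polymerase, was at -0.57 and Ubtf, which binds ribosomal DNA, at 0.05.

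Cell type markers also differed between the libraries. Of the 14 melanoma markers 14 were lower in CD36_KO, with a median of -2.22 and a range of -2.62 (Sox10) to -1.65 (Gpnmb). Of the 12 CD8 T cell markers 12 were higher, with a median of 1.77. Of the 12 macrophage markers 3 were lower and 0 higher, with a median of -0.39, but on the log2(TPM + 1) scale 0 were lower and 1, Ccr2, was higher. Of 8 measured fibroblast markers 5 were lower and 1 higher (median -1.31), and 3 and 1 on the log2(TPM + 1) scale. Hepatocyte, B cell and erythroid markers were higher for 11 of 11, 7 of 8 and 5 of 5 measured genes. The hepatocyte median was 2.72, the erythroid median 1.62, and B cell markers ranged from 0.81 to 2.80. The sums of these 3 lists in the WT lanes were 131 to 153, 70.8 to 79.0 and 322 to 365 CPM, against 870 to 904, 245 to 257 and 1069 to 1078 in the CD36_KO lanes. No listed marker found in the files was at 0 in either library. The part of these cell types in the values of Lars2 and CT010467.1 was not tested, and in bulk samples fewer cells of a type and less RNA per cell cannot be told apart.

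Genes with the most similar pattern were ranked by the root mean square difference of centred log2 CPM over the 8 lanes, among 6772 genes of at least 20 CPM. For Lars2 the first was the microRNA locus Mir6236 (difference 0.0789), with 2885 and 441 counts and a log2 ratio of -2.95. Also among the most similar were the small nucleolar RNA Snord17 (1938 and 265, -3.11), the predicted gene Gm10800 (1957 and 262, -3.14) and AA474408. The mature miR-6236 of RefSeq (GRCm38.p6, chr9:110281353-110281371, plus strand) is shown with its seed, bases 2 to 8, in capitals, because its locus stood closest to Lars2.
miR-6236: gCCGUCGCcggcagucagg
These libraries did not select small RNAs by any step named in the labels, so counts of the locus are not counts of the mature microRNA. For Gm26917 the closest were Lyz2, lysozyme of myeloid cells (0.0102; 30896 and 28365 counts, -0.36), Plec, Cd9, Itgb2 and mt-Nd5. For CT010467.1 they were Ctsd, the lysosomal protease cathepsin D (0.0186; 26326 and 15494 counts, -1.003, and -0.81 with total counts), Vim, C3, Ftl1 and Atp5b. With 2 libraries the lanes share their source, so the likeness mostly ranks genes by how near their ratio between libraries is to the member's.

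The genes next to Lars2 differed from it. After Lars2 come Limd1 (669 and 811 counts, 0.04), Sacm1l (458 and 502, -0.11) and Slc6a20b (52 and 58, -0.08), and their intervals all hold 0. On the log2(TPM + 1) scale these genes were at 0.70, 0.53 and 0.18. Before it, Clec3b, Cdcp1 and Tmem158 had 9 to 38 counts per library and were below the 5 CPM limit. The 3 nearest protein-coding genes on each side of Gm26917, among them the secreted-peptide genes Esp15, Esp16, Esp18 and Esp38, had 0 counts in both libraries.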

How the data were processed

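Each file gives, per transcript, estimated counts and TPM (transcripts per 1000000, a level per length), made by the authors with kallisto on GRCm38.p6, per the submitters' processing notes, which also name DESeq2 and give no versions. The deposited estimated counts carry no normalisation and need not be whole, and the deposited TPM values are scaled for length and lane total by the authors' kallisto run. Kallisto divides reads among transcripts that share sequence, so values of near-identical loci depend on that division.

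Estimated counts were summed per gene and over the 4 lanes of each library, rounded to whole numbers and scaled with TMM (edgeR 4.0.16, R 4.3.3; factors 0.934 for WT and 1.07 for CD36_KO). The log2 ratio is CD36_KO over WT, with an exact Clopper-Pearson 95% interval from the summed counts. Intervals of ratios between 2 features used the normal approximation of the log odds ratio, in place of the exact conditional interval that was planned, which took too long at these counts. Lane TPM values were averaged, and their log2 ratio used a pseudocount of 1. On that scale a call used the 2-fold limit alone, without a counting interval, among the genes measured by CPM. CPM of single lanes, and the alternative with same-numbered lanes as a block, used TMM factors from scaling all lanes together. These factors were 0.951 to 0.954 for the WT lanes and 1.047 to 1.055 for the CD36_KO lanes.

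Coordinates and transcript sequences came from GENCODE M21, to which 99.7% of gene identifiers matched without their version. A word counted as shared when its 31 bases, on either strand, occurred in another transcript.

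The members and gene lists were chosen with earlier results of these data known. The text names the members and their transcripts, up to 4 measured genes of largest absolute log2 ratio per list, Lars, the synthetases most abundant per length, the other measured ribosomal-RNA-like genes, Cd36, the 3 nearest protein-coding genes on each side and the 5 most similar genes per member. Some genes this rule names are not reported here. Polr1a, Ubtf and AA474408 were chosen after their values were seen. Alternatives were total counts, DESeq2 1.42.0 size factors, scaling without the ribosomal-RNA-like loci, TPM, 2 other filters, leaving out each lane, and same-numbered lanes as a block. Their use on the single genes of the lists was chosen after seeing the data. Scaling without the ribosomal-RNA-like loci also left out the members and the mitochondrial ribosomal RNAs.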

Additional observations from a re-analysis of the deposited data

Results flagged for a closer look

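In 3 of 30 groups of 4 lanes the lane farthest from the rest was far off by Dixon's test (gap to the nearest lane divided by the range), which chance alone does in about 1 of 20 groups. Lars2-209 was low in WT lane 1 (0.899), with 2599 counts against 2749 to 2789 in the other lanes. In that lane Lars2-201 was at its highest, with 108 counts, and the division between these transcripts is uncertain. The whole Lars2 gene was also lowest there, with 2719 counts, but was not flagged. Gm26917 was low in CD36_KO lane 4 (0.860), with 6.52% of counts against 6.56% to 6.57%, and so was its main transcript Gm26917-202 (0.856), which holds nearly all of the same counts.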

How the results depend on the processing

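Lars2 and Lars2-209 kept their sign and their call under every alternative run. Of 31 other named genes and transcripts 16 were called, of which 0 changed sign and 8 kept the call under all 15 alternatives (Cd36, AA474408, CT010467.1-201, Sox10, Gpnmb, Mir6236, Snord17 and Gm10800). Gm15564, Mrpl14 and Mrpl22 fell below the filter of 20 CPM, Mrpl22 was at -0.99 with DESeq2 size factors, Ctsd lost its call under 11 alternatives, and Mrpl12, Mrpl14 and Mrpl22 lost theirs without 1, 1 and 4 of the 8 lanes. With total counts the log2 ratio was -2.75 for Lars2, -0.17 for Gm26917, -0.80 for CT010467.1, -0.25 for the 3 genes summed (-0.45 with TMM) and -2.93 for Lars2-209, and the list medians were 0.22 (mitochondrial synthetases), -0.31 (cytosolic synthetases), 0.050 (RNA polymerase I and processing) and -0.20 (mitochondrial ribosomal proteins). On the log2(TPM + 1) scale these were -2.33, 0.18, -0.20, 0.018, -2.54, 0.46, 0.14, 0.44 and 0.11, so Gm26917, the sum and 3 list medians turned from negative to positive. In TPM the ratio between libraries of CT010467.1 per Gm26917 was 0.766 (0.646 in counts) and that of Lars2 per CT010467.1 was 0.223 (0.258 in counts). With DESeq2 size factors Gm26917 was at -0.35, CT010467.1 at -0.98 and the sum at -0.43. Genes at least 2-fold higher and lower numbered 792 and 1314. In TPM, where the 2-fold limit was used without an interval, they numbered 1501 and 329. They numbered 2214 and 2271 without a filter, and 344 and 679 from a mean of 20 CPM. With total counts they were 1114 and 940, which turns the split from mostly lower to mostly higher. From 20 CPM the medians were -0.28 (mitochondrial synthetases), -0.27 (RNA polymerase I and processing) and -0.35 (mitochondrial ribosomal proteins). Scaling without the ribosomal-RNA-like loci, which here also left out the members and the mitochondrial ribosomal RNAs, moved 0 of 11 results. The cause of these shifts was not tested.

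Lanes share a number but no animal, so pairing them has no meaning beyond the lane. With same-numbered lanes as a replicate block Gm26917 was at -0.31, CT010467.1 at -0.94 and the sum at -0.39. Cytosolic synthetases were at -0.45 and mitochondrial ribosomal proteins at -0.33. The other 9 results stayed within their counting interval, within the SD over lane pairs (list medians) or within 1.5 times (gene counts). The block also used the TMM factors of the single lanes, so the moves hold a change of scaling beside the pairing. TMM factors were also set anew for each lane left out. Leaving out each lane in turn gave -2.97 to -2.87 for Lars2, -0.36 to -0.30 for Gm26917, -0.996 to -0.93 for CT010467.1, -0.45 to -0.38 for the sum, -3.17 to -3.05 for Lars2-209, -0.073 (without CD36_KO lane 4) to 0.091 for the mitochondrial synthetase median, -0.51 to -0.43 for cytosolic synthetases, -0.18 to -0.041 (without WT lane 3) for RNA polymerase I and processing, -0.42 to -0.34 for mitochondrial ribosomal proteins, and 795 to 878 genes higher and 1178 to 1324 lower. Low counts limit the retained-intron Lars2 transcripts, Gm15564 and the mitochondrial leucine tRNAs.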
